A study of Mus musculus with 12 samples.

Results

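The postsynaptic density scaffolds described here are 9 genes, Dlg1, Dlg2, Dlg3, Dlg4, Dlgap1, Shank1, Shank2, Shank3 and Homer1, of the 20504 genes in a table of reads on coding sequence (CDS). They were chosen by name as the main scaffold genes of excitatory synapses, and all 9 were found in all 12 libraries. The libraries come from the brains of 6 mice at 3 months of age (the right frontal lobe for mice A to D) that carry Camk2a-cre and the RiboTag allele, in which Cre replaces the last exon of the ribosomal protein gene Rpl22 with an exon carrying a hemagglutinin (HA) tag. Cre is driven by the Camk2a promoter, so tagged ribosomes are made in principal excitatory neurons of the forebrain. AZD-8055, which competes with ATP for the kinase mTOR, was given by mouth at 100 mg/kg to mice C and D, with collection 1 h later. Mice A and B are called untreated by the labels and are named vehicle here, since the paper's methods give vehicle by gavage to the controls. From the whole tissue of each of these 4 animals, RNA-Seq of poly(A) RNA and ribosome profiling were both done. Mice E and F, which the labels also call untreated, each gave an RNA-Seq library of the homogenate (input) and one of polysomes immunoprecipitated with an antibody to HA (IP). There are thus 6 groups with 2 mice each, and libraries that share a letter come from 1 animal.

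The postsynaptic density is the protein sheet under the membrane of an excitatory synapse, opposite the site of glutamate release. The Dlg proteins hold glutamate receptors and adhesion molecules through their PDZ domains, and Dlg4 (PSD-95) is the best known of them. Dlgap1 binds the guanylate kinase-like domain of the Dlg proteins and, at its other end, the Shank proteins. Shank1, Shank2 and Shank3 form the deeper layer that reaches toward the actin cytoskeleton, and Homer1 links the Shank proteins to metabotropic glutamate receptors and to calcium stores. Translation of some mRNAs of this group takes place in dendrites, and mTOR is a main regulator of translation in neurons, acting most on mRNAs whose 5′ end starts with a C followed by a run of pyrimidines (the TOP motif).

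Positions are given on GRCm38.p6, the assembly behind mm10. Dlg1 lies at chr16:31663443-31873356, Dlg2 at chr7:90476188-92449246, Dlg3 at chrX:100767411-100818410 and Dlg4 at chr11:70017203-70045535. Shank1 lies at chr7:44308916-44360094, Shank2 at chr7:143978077-144426043 and Shank3 at chr15:89493013-89560261. Homer1 lies at chr13:93303757-93405129 and Dlgap1 at chr17:69969073-70821413. All are annotated as protein coding.

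The 5′ ends are shown because the TOP motif is read there. The RefSeq promoter table for GRCm38.p6 held 17 annotated starts for 7 of the 9 genes, and Shank1 and Shank2 were not among them. The first 30 bases are printed for 2 genes with a low and 2 with a high ratio of footprints to RNA-Seq reads. All are on the plus strand, and capitals mark a C at the first base with at least 4 C or T directly after it.
Dlg4, chr11:70017203-70017232: gagagaagagagatgtcccagagaccaaga
Dlg4, chr11:70018605-70018634: ccagctcatgccccagccccagaactccgg
Dlg4, chr11:70023982-70024011: CCCCCgccccctcggcccctccccctcccc
Shank3, chr15:89499608-89499637: aggcgccgctcgaagccggggccgatgcag
Dlg2, chr7:91090786-91090815: ggcacaatgctatatatagccaatgaagag
Dlg2, chr7:92062394-92062423: agaactctcttccaagatcactgacttcac
Dlg2, chr7:92234970-92234999: atgagttacaaggaaatatatgtacccagc
Homer1, chr13:93303757-93303786: aaaggtccttctgcggggaggatggagaca
Homer1, chr13:93308034-93308063: gcaacatataccaagtcacttcaaccagtt
The motif, a C as the first base followed directly by at least 4 C or T, was looked for only on the strand that reads as the mRNA does. It was present at 1 of the 17 scaffold starts (5.88%), the third start of Dlg4, at 2.51% of all 32851 starts in the table and at 18.1% of the 72 starts of ribosomal protein genes. Most annotated starts of ribosomal protein genes, which are known TOP mRNAs, thus lacked a match. A start without a match therefore does not show that the mRNA lacks the motif. Which start these brains used was not measured, so the match is a description of the annotation.

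Libraries of mice A to D held between 3503873 and 9259938 footprints on CDS, and between 9395385 and 10649939 RNA-Seq reads. The input libraries held 12580397 (mouse E) and 15585831 (mouse F) CDS reads and the IP libraries 9309496 and 9975629. The lowest count of any scaffold gene in any library was 219, for Shank2 in the footprints of mouse C, and all 9 genes passed the minimum of 37 counts per library on average in every comparison. CDS lengths were not used here, so levels are compared for 1 gene between libraries and not between genes. In whole tissue, fewer cells of a type and less RNA per cell cannot be told apart.

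**Figure D1:**
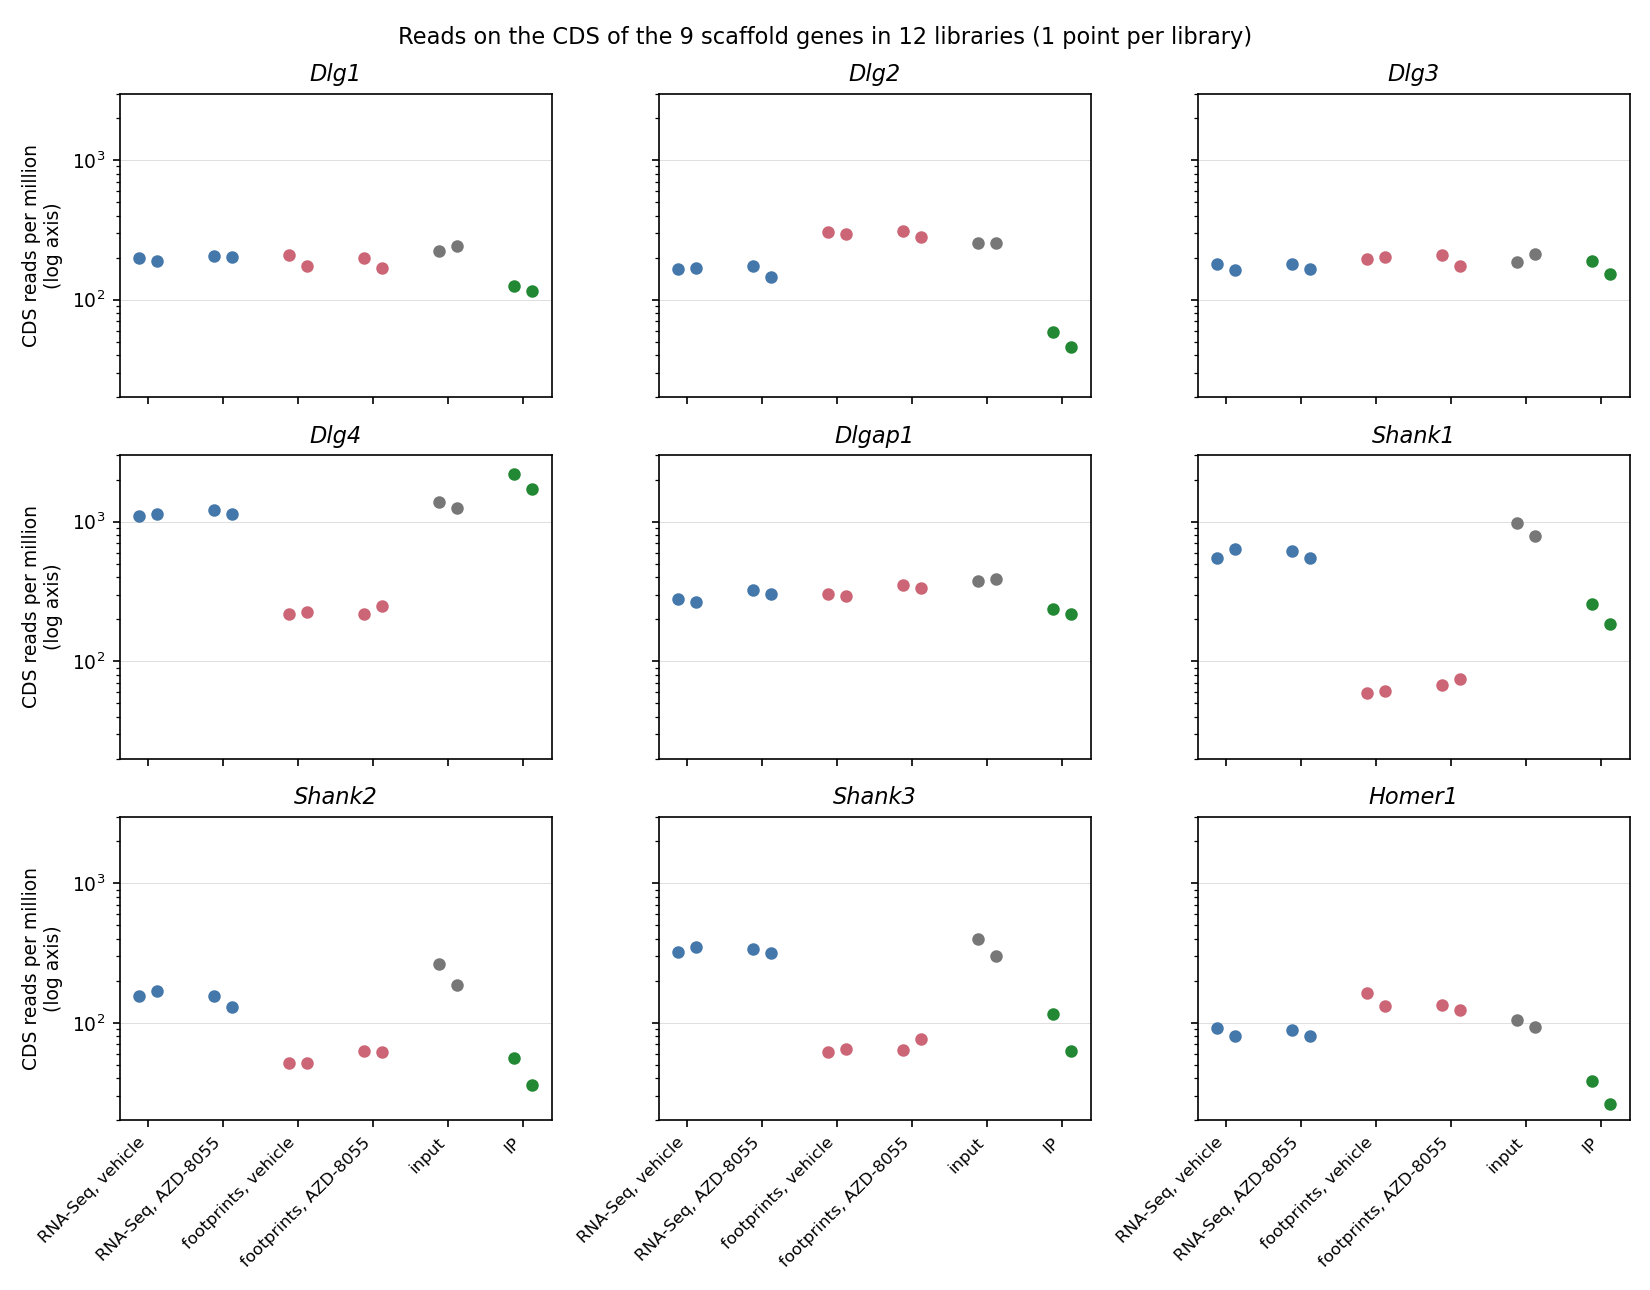
CDS reads of each gene in CPM, counts scaled to a common library total (log axis), for each scaffold gene in the 6 groups; each point is 1 library, with the mice of a group in order of letter from left to right. Footprints lie far below RNA-Seq for Dlg4 and the Shank genes and well above it for Dlg2 and Homer1. For Dlg3 and Dlgap1 they lie above the RNA-Seq of the same mouse, by less. IP lies above input in both mice only for Dlg4.

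The first comparison asks how densely the mRNA of each scaffold was covered by ribosomes, relative to other genes, in vehicle mice. Translation efficiency (TE) is the ratio of normalised footprints to normalised RNA-Seq reads on the CDS of a gene in 1 mouse, given here on the log2 scale, where the gene's length cancels. Of the genes with a TE, 85.9% lay between the lowest and the highest scaffold. Dlg4 and the 3 Shank genes carried few footprints for their RNA, Dlg2 and Homer1 carried many, and Dlg1, Dlg3 and Dlgap1 lay near the middle. Mean log2 TE of the vehicle mice ran from -3.20 (Shank1) to 0.95 (Dlg2), a span of 4.15 on the log2 scale or 17.7-fold. Across the 10882 genes with a TE, the median was 0.016 and the 5th and 95th percentiles were -1.76 and 1.46. The 2 vehicle mice differed by at most 0.23 for any scaffold gene, and the SD of the same difference over all genes was 0.28.

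Shank1, the scaffold with the lowest TE, had 547 CPM (CDS counts scaled to a common library total) in the RNA-Seq library of mouse A and 640 CPM in that of mouse B, and 59.1 and 61.5 CPM in their footprints. Its log2 TE was -3.08 and -3.31 (mean -3.20 ± 0.16, SD, n = 2), and 45 of the 10882 genes had a lower mean. Footprints were thus 9.17-fold below RNA-Seq reads after normalisation. Shank3 had 319 and 350 CPM in RNA-Seq and 61.8 and 65.0 in footprints. Its log2 TE was -2.24 in mouse A and -2.36 in mouse B (mean -2.30 ± 0.082, SD, n = 2). Shank2 was the least extreme of the family, with 156 and 169 CPM in RNA-Seq, 51.6 and 51.2 in footprints and a log2 TE of -1.47 and -1.66 (mean -1.56 ± 0.14, SD, n = 2). The footprint libraries of both mice lay below both RNA-Seq libraries for each Shank gene.

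Dlg4 had 1097 and 1142 CPM in RNA-Seq and 219 and 224 CPM in footprints. Its log2 TE was -2.20 and -2.28 (mean -2.24 ± 0.056, SD, n = 2), with 248 genes lower. Its paralogues did not share this value. Dlg2 had 165 and 168 CPM in RNA-Seq and 307 and 295 in footprints, a log2 TE of 1.02 and 0.88 (mean 0.95 ± 0.10, SD, n = 2). Dlg3 (0.25 and 0.37, mean 0.31 ± 0.087) and Dlg1 (0.20 and -0.03, mean 0.083 ± 0.16) lay between them. The PDZ scaffolds of the Dlg family therefore held both a gene among the lowest of the transcriptome and a gene with a TE above that of 9393 of the 10882 genes.

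Homer1 had 91.6 and 80.3 CPM in RNA-Seq and 163 and 132 in footprints, a log2 TE of 0.96 and 0.78 (mean 0.87 ± 0.12, SD, n = 2). Dlgap1 had a log2 TE of 0.24 and 0.20 (mean 0.22 ± 0.029, SD, n = 2), the closest pair of values among the scaffolds. The median of the 9 genes, that of Dlg1, was 0.083, but it took the value -0.03 in mouse B alone and -0.014 with library totals in place of size factors.

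**Figure D2:**
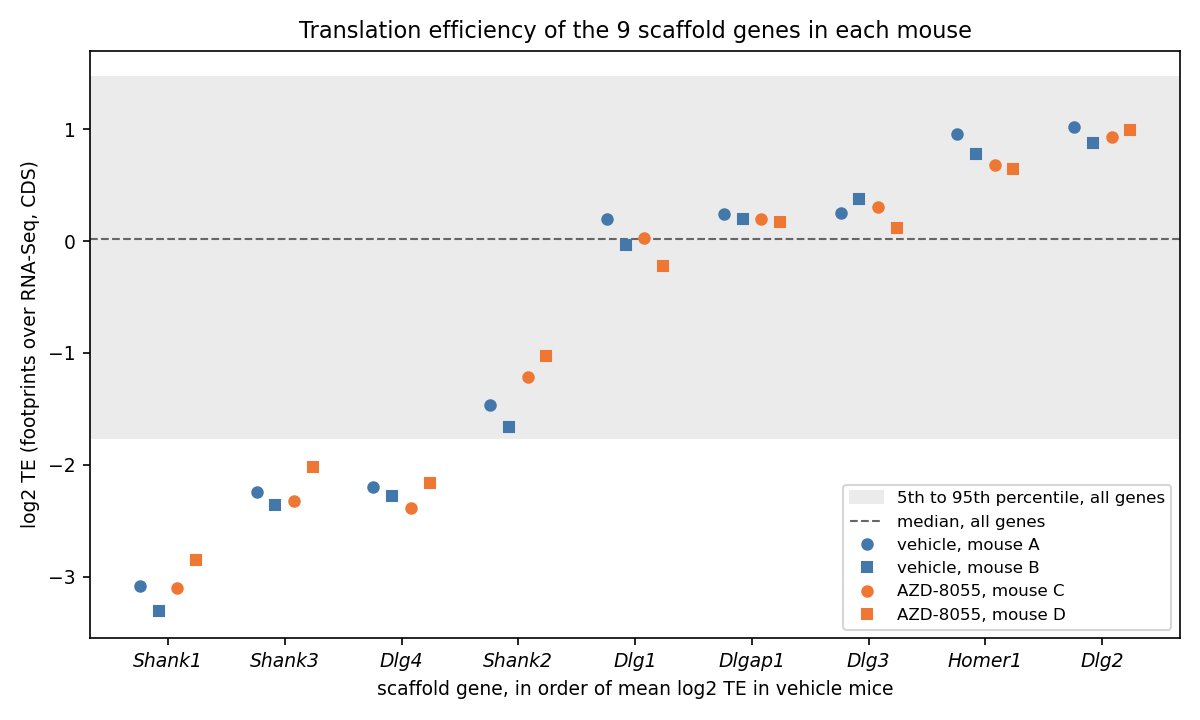
log2 TE (footprints over RNA-Seq reads on CDS, counts divided by size factors) of each scaffold gene in vehicle mice A and B and AZD-8055 mice C and D; the band spans the 5th to 95th percentile (-1.76 to 1.46) and the dashed line the median (0.016) of 10882 genes in vehicle mice. Shank1, Shank3 and Dlg4 lie below the band in all 4 mice, while Homer1 and Dlg2 lie between 0.65 and 1.02.

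The order of the genes was much the same in each mouse. Shank1 had the lowest log2 TE and Shank2 the fourth lowest of the 9 in each of the 4 mice, Dlg2 the highest and Homer1 the second highest. Shank3 and Dlg4 exchanged places between the vehicle mice and the AZD-8055 mice, and their vehicle means (-2.30 and -2.24) differed by less than the SD of Shank3. Dlg3 and Dlgap1 exchanged places in mouse D, and Dlg1, Dlgap1 and Dlg3 were within 0.23 of each other on the mean. Neighbours in these groups cannot be ordered beyond their spread.

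In edgeR's quasi-likelihood fit over the 8 libraries of mice A to D, 8 of the 9 genes differed between footprints and RNA-Seq in vehicle mice at an adjusted p under 0.05, 4 higher and 4 lower in footprints. This fit called 36.5% of the 11797 genes tested higher and 37.3% lower, so the number of scaffolds called was near that of all genes and the sizes carry the description. The log2 difference was -3.16 (SE 0.096) for Shank1, -2.26 (SE 0.089) for Shank3, -2.20 (SE 0.072) for Dlg4 and -1.52 (SE 0.096) for Shank2. It was 0.99 (SE 0.092) for Dlg2, 0.93 (SE 0.11) for Homer1, 0.35 (SE 0.092) for Dlg3 and 0.27 (SE 0.074) for Dlgap1. Dlg1, at 0.14 (SE 0.096), did not pass (edgeR adjusted p = 0.193). Dlg3 did not pass without mouse B (0.27, edgeR adjusted p = 0.0916), and Dlgap1 did not pass with library totals (0.13, adjusted p = 0.101) or with no count filter (0.18, adjusted p = 0.0779). The median log2 difference of the 9 genes was 0.14, beside -0.0096 for all genes.

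Other genes of the postsynaptic density showed a like spread in the same fit. Of the 6 remaining Dlg, Dlgap and Homer genes, 2 were higher in footprints, Homer2 (0.68) and Dlgap2 (0.66), and 4 were lower, with Dlgap3 at -3.32 the lowest and a median of -0.96. Of the genes of 27 proteins that bind these scaffolds or sit with them, 10 were higher, 11 were lower and 6 did not pass, with a median of -0.15. They ran from Ddn, which encodes the postsynaptic protein dendrin, at -3.42 to Lin7a, a PDZ adaptor, at 1.89. The 8 glutamate receptor subunits and adhesion proteins held by the scaffolds were all higher, from Gria1 (0.43) to Grin2b (4.46), with a median of 0.94. Among the 12 scaffolds of the presynaptic active zone, 4 were higher (Cask, Erc1, Pclo and Erc2, from 0.80 to 1.59), 6 were lower and 2 did not pass, with a median of -0.24. Their range, from -1.13 (Ppfia3) to 1.59 (Cask), was narrower than that of the 9 postsynaptic scaffolds. Gphn (gephyrin), a scaffold of inhibitory synapses, was higher at 0.52.

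Markers of other cells stood at different levels in the 2 kinds of library. The summed CPM of 8 astrocyte markers lay between 2125 and 2361 in the 4 RNA-Seq libraries and between 4525 and 5156 in the 4 footprint libraries. That of 8 inhibitory neuron markers lay between 1281 and 1407 in RNA-Seq and between 2098 and 2323 in footprints, and that of 8 excitatory neuron markers between 4317 and 4737 and between 4181 and 4812. The sums were lower in footprints for 8 endothelial markers (130 to 143, against 247 to 285 in RNA-Seq) and 8 microglia markers (364 to 373, against 410 to 466), and higher for 4 oligodendrocyte progenitor markers (188 to 243, against 141 to 173). The sums of the oligodendrocyte and striatal neuron markers overlapped between the 2 kinds of library. No marker in any list was at 0 in any library. Both kinds of library came from the same tissue of each mouse, so the sums also carry the TE of the markers themselves. Among astrocyte markers the log2 difference of footprints from RNA-Seq ran from -0.29 (Aldh1l1) to 3.45 (Slc1a2). The part of cell makeup in the TE of the scaffolds was not tested.

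The second comparison asks whether 1 h of mTOR inhibition changed the scaffolds. None of the 9 genes changed in RNA-Seq reads, in footprints or in TE at an adjusted p under 0.05 in edgeR. The background was low too: 0.148% of 12182 genes were called for RNA, 1.03% of 10695 for footprints and 0.865% of 11797 for TE, and with DESeq2 no scaffold was called either. At an unadjusted p under 0.05, 2 of the 9 scaffolds passed for RNA (Dlgap1 and Shank2), 3 for footprints (Dlgap1, Shank1 and Shank2) and 1 for TE (Shank2), where 1004, 1369 and 796 of all genes did. In the same fits, 70 of 75 ribosomal protein genes, the best known TOP mRNAs, fell in TE (median -0.89) and 71 of 75 fell in footprints, with none called in RNA. The 3 comparisons share their libraries and are not independent of each other.

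Shank2 had the largest TE difference of the 9. Its log2 TE was -1.47 and -1.66 in vehicle mice A and B and -1.22 and -1.03 in AZD-8055 mice C and D. The difference was 0.43 (SE 0.14, 95% interval 0.13 to 0.73), with an unadjusted p of 0.0074 and an edgeR adjusted p of 0.404, or 0.108 with the mouse as a block. It held an RNA-Seq difference of -0.19 (SE 0.085, adjusted p = 0.577) and a footprint difference of 0.26 (SE 0.10, adjusted p = 0.330). Shank1 went the same way by 0.23 (SE 0.13, adjusted p = 0.785) in TE, from -3.08 and -3.31 to -3.10 and -2.85, but mouse C lay among the vehicle mice. Shank3 differed by 0.15 (SE 0.13, adjusted p = 0.886), with mouse C again inside the range of mice A and B, and by -0.03 without mouse D.

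Homer1 had the most negative TE difference, at -0.23 (SE 0.15, 95% interval -0.56 to 0.10, edgeR adjusted p = 0.838). Its log2 TE was 0.96 and 0.78 in vehicle mice and 0.68 and 0.65 in AZD-8055 mice. Its footprints differed by -0.21 (SE 0.11, adjusted p = 0.440). This footprint difference passed the threshold, of the alternatives run, only when mouse C, the library with the fewest footprints, was left out (-0.30, adjusted p = 0.0358), a fit that called 837 genes in place of 110. Dlg1 differed in TE by -0.19, Dlg3 by -0.096, Dlg4 by -0.027, Dlgap1 by -0.036 and Dlg2 by 0.0062. The signs of Dlg2 and Dlg4 changed with the mice left out.

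Dlgap1 had the largest RNA-Seq difference. It had 279 and 267 CPM in vehicle mice A and B and 324 and 302 in mice C and D, a log2 difference of 0.20 (SE 0.071, edgeR adjusted p = 0.411). On exon reads, which add the untranslated parts of the mRNA, the difference was 0.071 (adjusted p = 0.754). Its footprints differed by 0.19 (SE 0.074, adjusted p = 0.330), and its TE was 0.24 and 0.20 against 0.20 and 0.17. Dlg4, 1 of whose annotated starts holds the TOP motif, had 95% intervals of -0.24 to 0.18 for TE, -0.04 to 0.20 for RNA and -0.11 to 0.26 for footprints.

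**Figure D3:**
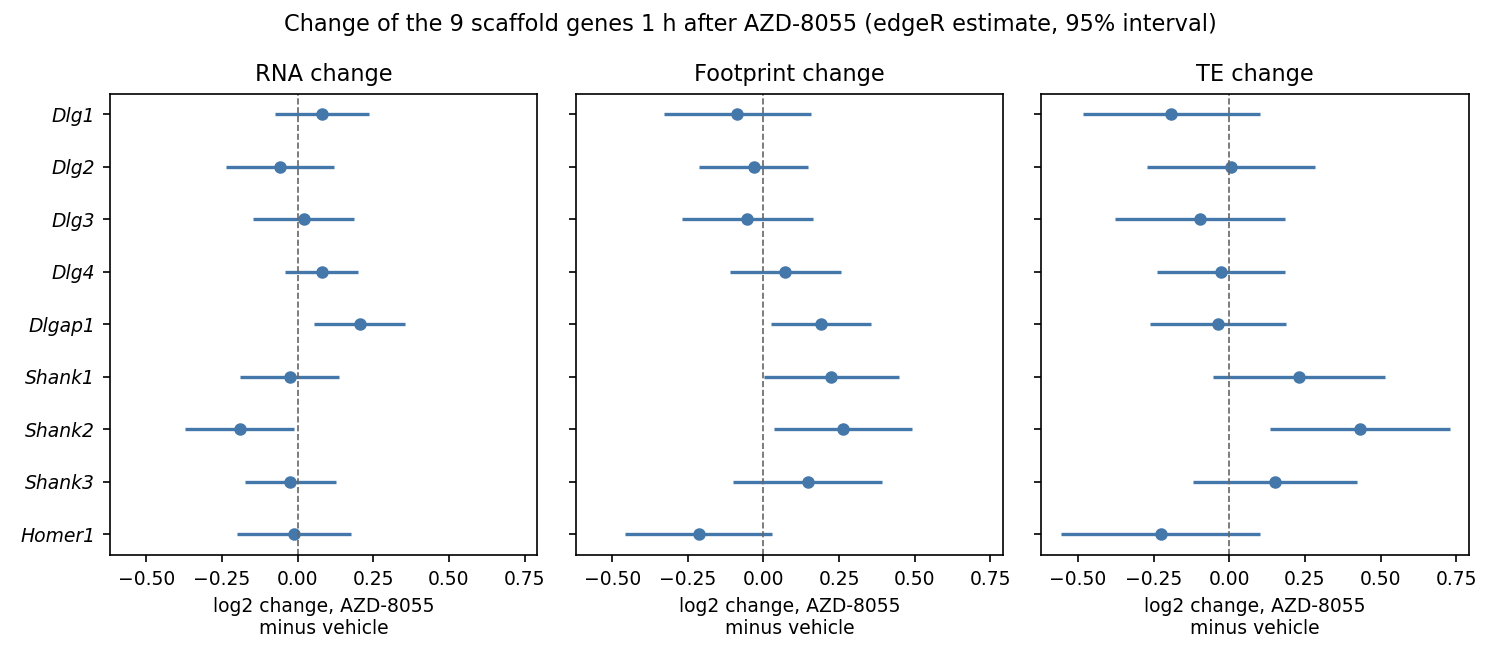
log2 change of RNA-Seq reads, footprints and TE of each scaffold gene, AZD-8055 (mice C and D) minus vehicle (mice A and B); points are edgeR estimates and lines their 95% intervals, not adjusted for the number of genes. The TE interval lies above 0 for Shank2 (0.13 to 0.73), and no estimate passed the adjusted threshold.

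The other genes in these lists were not called for TE either, with 1 exception. None of 6 other family members, 27 binding partners and 8 receptors and adhesion proteins passed, and among 12 active zone scaffolds Bsn (bassoon) rose in TE by 0.48 (SE 0.099, edgeR adjusted p = 0.0279). Median TE differences were -0.027 for the 9 scaffolds, 0.067 for their family members, 0.090 for the partners, 0.041 for the receptors and 0.043 for the active zone, beside -0.011 for all genes. None of these lists had a gene called for RNA or footprints. The summed CPM of 7 striatal neuron markers was 1679 and 1627 in the RNA-Seq libraries of mice A and B and 1855 and 2022 in those of mice C and D. That of the 8 excitatory markers in footprints was 4183 and 4181 in mice A and B and 4693 and 4812 in mice C and D. The part of cell makeup in the differences was not tested.

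The third comparison asks which scaffold mRNAs were on the tagged polysomes of Camk2a-expressing neurons, as IP against input. Log2 ratios were taken within each mouse. The edgeR fit did not pair IP with input, except where the mouse is named as a block. On CDS reads, Dlg4 was the only scaffold higher in IP. The 3 Shank genes, Dlg2, Homer1, Dlg1 and Dlgap1 were lower, and Dlg3 did not pass. The RiboTag label was checked first. Of 8 excitatory markers, 5 rose in IP on CDS reads, 2 fell and 1 did not pass, with Camk2a itself the lowest (-0.66). On exon reads 6 rose and 1, Cux2, fell, with Camk2a at 0.27 and not called. The summed CPM of the excitatory markers went from 5304 and 4975 in input to 7450 and 6912 in IP. All 8 inhibitory neuron, 8 astrocyte, 4 oligodendrocyte progenitor, 8 oligodendrocyte and 8 endothelial markers fell, as did 7 of 8 microglia markers. Summed CPM went from 1105 and 1117 to 233 and 162 for inhibitory neurons, and from 2388 and 2330 to 200 and 234 for astrocytes. Of 7 striatal markers 2 rose, Ppp1r1b and Penk, and 2 fell, Drd1a and Drd2. Summed CPM of the oligodendrocyte markers went from 2464 and 2332 to 189 and 193. The part of cell makeup in the IP differences of the scaffolds was not tested.

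Dlg4 had 1379 CPM in input and 2205 in IP of mouse E, and 1254 and 1713 in mouse F. The log2 ratio of normalised counts was 1.23 and 1.04 (mean 1.13 ± 0.14, SD, n = 2), and edgeR gave 1.01 (SE 0.13, adjusted p = 0.000102), or 0.57 with library totals. It was positive in both mice with library totals as well (0.68 and 0.45) and on exon reads (1.04 and 0.92). Of the 9 scaffolds it was thus low in TE and high in IP, while the Shank genes, with a like low TE, were low in both.

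Shank2 had 262 and 187 CPM in input and 55.5 and 35.6 in IP, a log2 ratio of -1.69 and -1.80 (mean -1.74 ± 0.084, SD, n = 2). Shank1 went from 974 to 257 CPM in mouse E and from 785 to 186 in mouse F (-1.37 and -1.49). Shank3 went from 401 to 117 and from 301 to 63.1 (-1.23 and -1.67). In edgeR the differences were -1.87 (SE 0.23) for Shank2, -1.55 (SE 0.17) for Shank1 and -1.53 (SE 0.26) for Shank3, with both IP libraries below both inputs for each gene. On exon reads these genes stayed lower, at -1.75, -1.64 and -1.10.

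Dlg2 was as low as Shank2 on CDS reads, with 256 and 255 CPM in input and 58.4 and 45.5 in IP. Its log2 ratio was -1.58 and -1.90, and edgeR gave -1.86 (SE 0.14, adjusted p = 6.9e-06). On exon reads the difference was -0.32 (SE 0.090, adjusted p = 0.0177). Homer1 behaved in a like way, with a log2 ratio of -0.89 and -1.26 on CDS reads (edgeR -1.18, SE 0.18) and -0.05 and -0.10 on exon reads (edgeR -0.19, adjusted p = 0.114, or 0.00887 with the mouse as a block). Dlg1 was at -0.51 (SE 0.12) on CDS reads and -0.024 (adjusted p = 0.818) on exon reads. For these 3 genes the size of the depletion depended on which reads were counted.

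Dlgap1 and Dlg3 changed call with the reads counted. Dlgap1 was lower in IP on CDS reads (-0.32, SE 0.11, edgeR adjusted p = 0.0237) and higher on exon reads (0.50, SE 0.087, adjusted p = 0.0027), with per-mouse log2 ratios of -0.11 and -0.27 against 0.61 and 0.61. The CDS call was lost with DESeq2 (-0.27, adjusted p = 0.0555) and with no count filter. Dlg3 was at 0.22 (SE 0.14, adjusted p = 0.175) on CDS reads and 1.04 (SE 0.088, adjusted p = 0.00016) on exon reads. On CDS reads its log2 ratio was 0.57 (mouse E) and 0.12 (mouse F), and with library totals 0.021 and -0.47, so its direction on CDS was not fixed.

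In all, edgeR called 1 scaffold higher and 7 lower on CDS reads, where it called 36.5% of 12211 genes higher and 39% lower. On exon reads it called 3 higher (Dlg3, Dlg4 and Dlgap1) and 4 lower (Dlg2 and the Shank genes), beside 33.7% of 13254 genes higher and 35.7% lower. The median log2 difference of the 9 genes was -1.18 on CDS reads and -0.19 on exon reads, beside -0.067 and -0.034 for all genes. Library totals moved the median of all genes to -0.51 and the split of calls from 4455 higher and 4766 lower to 3022 and 6272, with the signs of the 8 called scaffolds unaltered.

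Among the other lists on CDS reads, the 6 other family members had 1 higher, Dlgap4 (0.42), and 2 lower, Dlgap2 (-0.60) and Dlg5 (-1.92). The 27 partners had 3 higher, Lin7b (2.17), Begain (0.81) and Pick1 (0.71), and 17 lower, down to Frmpd4 (-2.88), with a median of -0.46. The 8 receptors and adhesion proteins had none higher and 6 lower, from -0.077 (Grin2b, not called) to -2.81 (Grm5), with a median of -0.999. The active zone had 1 higher, Ppfia3 (0.39), and 9 lower, down to Bsn (-2.82), with a median of -0.92. All 75 ribosomal protein genes tested were higher on CDS reads, with a median of 1.35, and 72 of 73 on exon reads, with a median of 0.91. On exon reads the partners had 6 higher and 8 lower, the receptors and adhesion proteins none and 4, the active zone 1 and 6, and the other family members 1 and 4.

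Since 5 of the scaffolds moved with the reads counted, CDS reads and the other exon reads (exon count minus CDS count) were set against each other in 1 fit, a comparison chosen after these values were seen. Exon and CDS reads were counted separately in strict mode, so their difference only approximates the reads outside the CDS. The share of exon reads that lay on the CDS was lower in IP than in input for each of the 9 genes in both mice. For Dlg2 it was 29.3% and 28.1% in input and 8.0% and 6.4% in IP. For Dlg3 it was 48.5% and 50.2% in input and 22.5% and 18.1% in IP. For Homer1 it was 34.5% and 31.3% against 14.3% and 9.8%, and for Shank3 71.0% and 69.0% against 40.6% and 33.9%. Dlg4 and Shank1 had the highest shares, 77.9% in both inputs and 65.9% and 59.0% in IP for Dlg4, and 81.7% and 80.8% against 65.2% and 60.5% for Shank1. In the RNA-Seq libraries of mice A to D the shares of Dlg1, Dlg2, Dlg3, Dlg4, Homer1 and Shank3 lay below both inputs and above both IP libraries, between 19.9% and 22.5% for Dlg2 and between 74.9% and 76.8% for Dlg4. Those of Dlgap1, Shank1 and Shank2 overlapped the inputs.

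The same shift was present across the transcriptome, where the exon count exceeded the CDS count of the median gene by a log2 ratio of 0.56 and 0.58 in input and 0.84 and 0.92 in IP. It went from 1.77 and 1.83 to 3.65 and 3.97 for Dlg2, and from 0.36 and 0.36 to 0.60 and 0.76 for Dlg4. Relative to the typical gene, 7 of the 9 scaffolds lost CDS reads against other exon reads in IP and none gained them, where the fit called 26.6% of 9585 genes lower and 27.6% higher. The log2 difference was -1.32 (SE 0.11) for Dlg2, -0.91 (SE 0.12) for Shank3, -0.88 (SE 0.12) for Dlg3 and -0.79 (SE 0.13) for Homer1. It was -0.67 (SE 0.11) for Dlgap1, -0.65 (SE 0.11) for Dlg1 and -0.29 (SE 0.11, edgeR adjusted p = 0.0318) for Shank1. Dlg4 (-0.015, 95% interval -0.24 to 0.21) and Shank2 (-0.16, 95% interval -0.41 to 0.09) did not pass. The median of the 9 genes was -0.67, beside 0.031 for all genes. With library totals, all 9 were called lower, and the split over all genes went from 2648 higher and 2551 lower to 1164 and 4154. On other exon reads alone, the log2 ratio of IP to input was 1.18 and 1.14 for Dlg3, 1.01 and 1.16 for Dlg4, 0.42 and 0.43 for Dlgap1 and 0.23 and 0.19 for Dlg1. It was below 0 in both mice for Dlg2, Homer1 and the Shank genes. Each kind of read was divided by its own size factors. In mouse E these were 0.86 (input) and 0.92 (IP) for other exon reads, and 1.10 and 0.75 for all exon reads. Ratios of different kinds of read are thus not on 1 scale, and the signs for Dlg2, Homer1 and Shank3 depend on the factors used. Length and position of reads along the transcript were not measured here, and the cause of the shift was not tested.

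**Figure D4:**
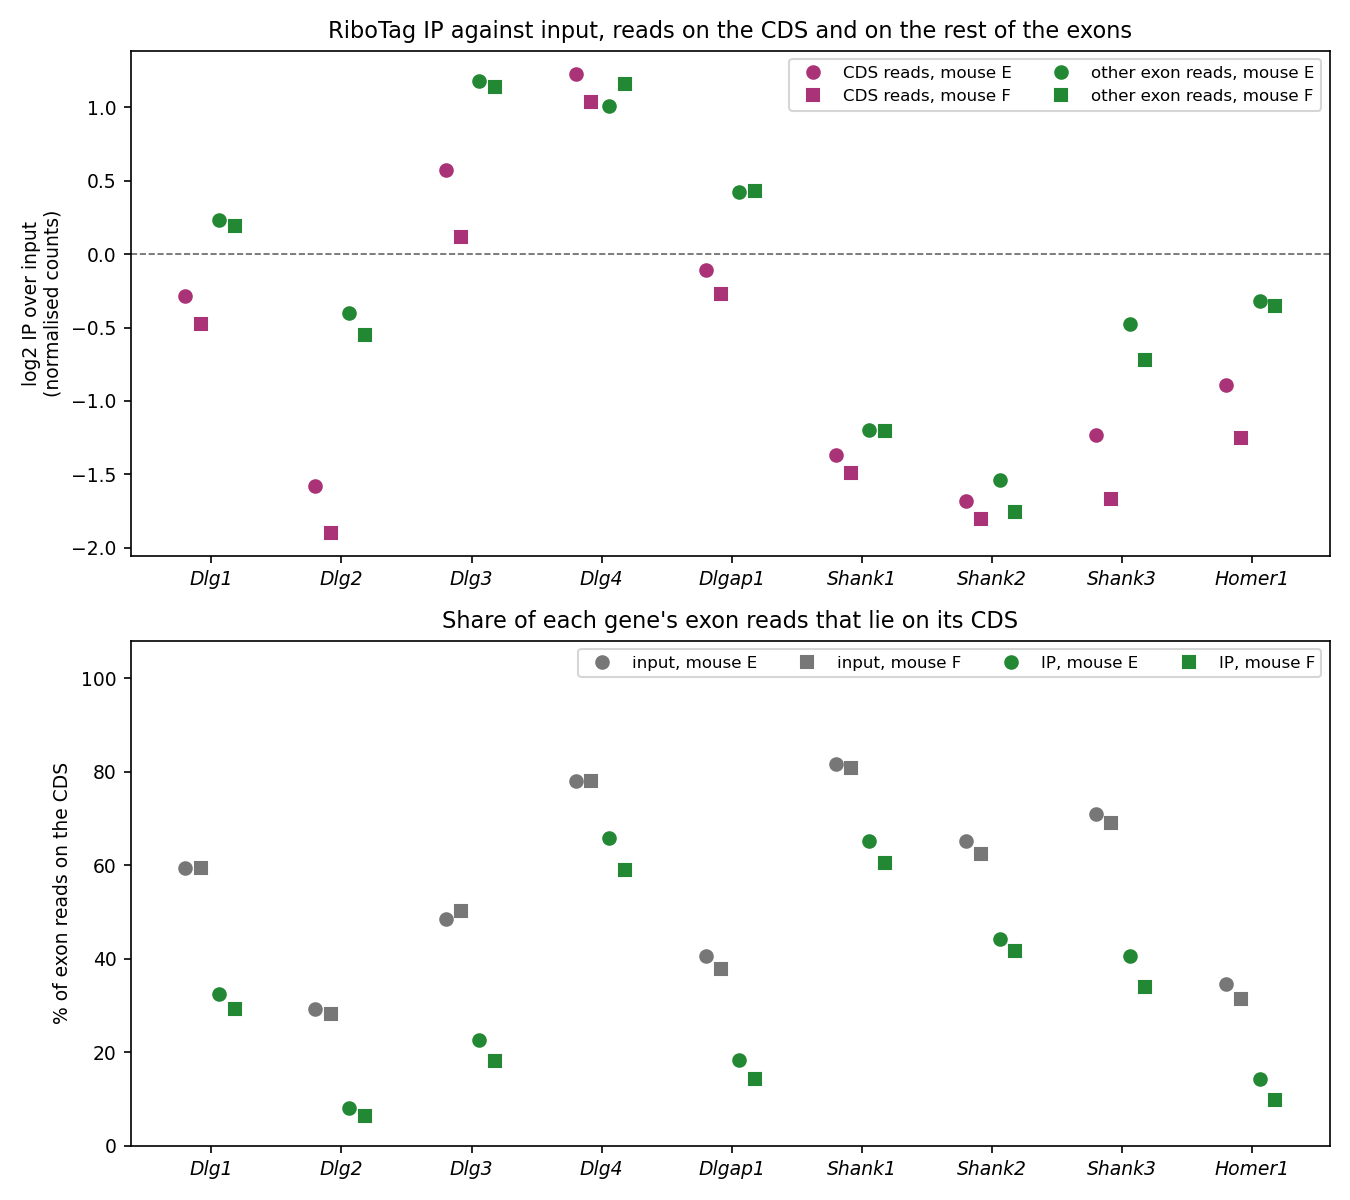
Top, log2 ratio of IP to input of each scaffold gene in mice E and F, for CDS reads and for other exon reads. Counts were divided by size factors taken for each kind of read apart, so the 2 kinds are not on 1 scale. Bottom, the percent of the gene's exon reads that lie on its CDS in input and IP. In the top panel Dlg4 has like ratios for both kinds of read, between 1.01 and 1.23, whereas Dlg2 lies at -1.58 and -1.90 on CDS reads and at -0.40 and -0.55 on other exon reads; in the bottom panel the IP points lie below the input points for each gene.

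Profiles over all 12 libraries were compared last. The Pearson correlation of log2(CPM + 1) on CDS was 0.98 between Dlg2 and Homer1, 0.95 between Shank1 and Shank3 and 0.95 between Shank2 and Shank3. It was -0.72 between Dlg4 and Dlg2 and -0.76 between Dlg4 and Homer1, the lowest of any pair. The points share mice and kinds of library, so these values mostly describe the contrast of footprints, RNA-Seq and IP given above. Among 12014 genes, those most like Dlg4 were Dgkz, Cacnb3 and Suds3 (r from 0.997 to 0.998), and those most like Shank1 were B3gat1, Chrd and Ncor1 (0.995 to 0.997). Those most like Shank3 were Rapgef1, Cyth1 and Unc79, and those most like Shank2 were Lphn1, Med13l and Syt7, all at 0.99 or above. Dlg2 was closest to Sbno1, Rbm27 and Hmbox1 (0.996) and Homer1 to Gabpa, Lrrtm2 and Cacul1 (0.991 to 0.992). Dlg1 was closest to Pdzd8, Wdr48 and Spag9 (0.97 each) and Dlgap1 to Zeb2, Kcnh1 and Angel1 (0.940 to 0.948). Dlg3 had no close match, its highest values being 0.82 for Ppp3cb, 0.82 for Cpne8 and 0.81 for Cpne4.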

How the data were processed

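The authors deposited raw counts, whole numbers of reads per gene. One table holds CDS counts of the 12 libraries and another holds exon counts of the 8 RNA-Seq libraries. RNA-Seq started from poly(A) RNA (TruSeq kit), and footprints were tailed with poly(A) and turned into libraries by template switching. Per the submitters' processing notes and the study's methods, reads were trimmed, cleared of rRNA with Bowtie2, aligned with TopHat2 to mm10 and counted with HTSeq in its strict mode (tool versions are not given in the sources used here). Reads that paralogues or overlapping genes share were not recovered, and 27 symbols altered to dates were kept as separate rows.

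Tests used edgeR 4.0.16 in R 4.3.3 (TMM, quasi-likelihood F-test, Benjamini-Hochberg adjustment over all genes tested, threshold 0.05) on genes whose mean over the libraries reached 37 counts. TE and TE change were fitted over the 8 libraries of mice A to D, RNA and footprint changes over 4 libraries each and the IP over the 4 libraries of mice E and F. None of these fits held a term for the mouse, except where the mouse is named as a block. log2 TE and IP ratios per mouse used DESeq2 1.42.0 size factors, estimated apart for CDS, exon and other exon reads. TE was kept for genes whose vehicle libraries summed to 75 counts or more for RNA-Seq and for footprints alike. CDS against other exon reads was an interaction of read region with IP, with the library as block, without the 439 genes whose exon count was below the CDS count in any of these libraries. Summaries and figures used Python 3.11.15, pandas 2.3.3, numpy 2.4.6 and matplotlib 3.10.9.

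A shared mouse letter means a shared animal. Differences of mouse A from mouse B, gene by gene, had a correlation of 0.24 between RNA-Seq and footprints, those of C from D had 0.20, and those of E from F had 0.48 between input and IP. Simulated counts, with a log2 change of 1.5 put into 200 genes, gave recovery of 99% (baseline TE), 89.5% (TE change), 99.5% (RNA), 98% (footprints), 96% (IP) and 98% (CDS against other exon reads), with 8.76%, 5.79%, 7.01%, 15.5%, 12.7% and 7.55% false calls. Each share of false calls lay above the threshold of 0.05. Recovery of changes as small as the largest AZD-8055 TE difference of a scaffold (0.43, Shank2) was not simulated. Nor were changes in as many genes as were called for baseline TE (8703), the IP (9221) or CDS against other exon reads (5199). The scaffolds and all gene lists were chosen with earlier results of these data known. Named beside the scaffolds are the genes of each list that passed where at most 5 did, otherwise its highest and lowest, and the 3 genes closest in profile to each scaffold. Where a count in 1 direction was at most 5, further genes were named after their values were seen. Protein sequences and CDS lengths were not used here. Some genes of the lists are not reported here.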

Additional observations from a re-analysis of the deposited data

How the results depend on the processing

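The alternatives were DESeq2, RLE normalization, library totals, no count filter, a minimum of 100 counts, the mouse as a replicate block, exon counts, a required change of over 2-fold and each mouse left out. The IP fit without a mouse has no residual degrees of freedom and gives no test. Groups of 2 mice and 3503873 footprints in the shallowest library limit what the AZD-8055 comparisons can show. With the mouse as a block, calls rose from 102 to 147 genes for TE change, with 0 scaffolds passing as before; 8 passed as before for baseline TE and for the IP, and on exon counts 8 in place of 7 (Homer1 added). A required 2-fold change left 36 genes for TE change and 5680 for the IP. RNA calls were 18, and 29 with library totals and 78 with no filter, while footprint calls were 110, and 264 with no filter. Leaving out 1 mouse gave 56 to 77 calls for TE change, 13 to 36 for RNA and 64 (without mouse B) to 837 (without mouse C) for footprints, of which 0 to 1 were scaffolds (Homer1).

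The median log2 TE of the scaffolds was 0.083, -0.014 with library totals and -0.032 to 0.20 with 1 vehicle mouse left out. Their median log2 IP ratio was -1.07, -1.64 with library totals and -0.075 on exon counts. In the IP, Dlg3 turned to -0.22 with library totals and Dlgap1 to 0.50 on exon counts (0.50 with the block). These signs also turned, none of them past the threshold. With library totals TE change was 0.011 for Dlg4 and 0.0011 for Dlgap1, and with no filter -0.036 for Dlg2. On exon counts the RNA difference was -0.0081 for Dlg3 and 0.0072 for Shank1. With 1 mouse left out, TE change ran from -0.038 to 0.066 for Dlg2, -0.16 to 0.11 for Dlg4 and -0.034 to 0.32 for Shank3. RNA ran from -0.20 to 0.067 for Dlg2, -0.054 to 0.10 for Dlg3, -0.12 to 0.084 for Shank1, -0.079 to 0.037 for Shank3 and -0.11 to 0.097 for Homer1. Footprints ran from -0.21 to 0.061 for Dlg1, -0.12 to 0.055 for Dlg2, -0.20 to 0.089 for Dlg3 and -0.017 to 0.15 for Dlg4. The causes of these shifts were not tested.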
